A study of Mus musculus with 6 samples.

Results

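The genes described here encode the subunits of the Polycomb complexes PRC1 and PRC2 and of the H2A deubiquitinase PR-DUB. They were taken as a list of 36 named genes with known roles in these complexes, and 35 of them had a row of their own among the 19752 genes measured. *Cbx6* shares its row with other genes, since the array annotation gives that row 3 symbols, and is not analysed here. Transcript levels were read on 6 microarrays, each hybridized with RNA of mature (Vα2hi CD24lo) CD4 SP thymocytes that had been sorted from mice that carried the OT-II TCR transgene, an MHC II-restricted receptor that directs thymocytes to the CD4 lineage. In the dKO group (3 arrays), floxed *Kdm6a* and *Kdm6b* alleles, which encode the H3K27Me3 demethylases Utx and Jmjd3, had been deleted by *Cd4*-Cre. The wild-type group (3 arrays) came from Cre-negative OT-II animals, and the methods describe the controls as littermates with floxed *Jmjd3* (*Kdm6b*) or *Utx* (*Kdm6a*) alleles. *Cd4*-Cre acts from the CD4+CD8+ (double positive, DP) stage, so the deletion covers only late thymocyte development, and it removes exons of the catalytic JmjC domain rather than the whole gene. The groups therefore also differ in the presence of Cre. The methods give an age range in weeks for the mice of the whole study, here described as adolescents to young adults. They name female mice unless stated otherwise, and the labels add neither age nor sex for these arrays. The labels call the arrays of a genotype biological replicates without naming the mice, so each p-value reflects spread between samples that may be partly technical.

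PRC2 places the trimethyl mark on lysine 27 of histone H3 that Jmjd3 and Utx remove. Its catalytic subunit is Ezh2 or Ezh1, held with Eed and Suz12, and accessory subunits steer it to chromatin. PRC1 is a family of E3 ligases built on Ring1 or Rnf2 that attach a ubiquitin to histone H2A. Canonical PRC1 carries a Cbx protein that binds H3K27Me3, together with a Phc protein that links complexes to each other, whereas variant PRC1 carries Rybp or Yaf2 and reaches chromatin in other ways. PR-DUB, formed by Bap1 and an Asxl protein, takes the ubiquitin off H2A again. In T-cells, Polycomb silencing is known for holding developmental and effector genes in check.

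Of the targeted genes, *Kdm6a* had a log2 value of 9.49 ± 0.09 in dKO cells and 10.16 ± 0.05 in wild-type cells (SD, n = 3 each; adjusted p = 2.6e-05 from limma), and *Kdm6b* had means of 9.81 in dKO and 9.90 in wild-type cells (adjusted p = 0.32). The position of these probes relative to the deleted exons was not examined. Array medians lay between 6.27 and 6.32, and arrays of a genotype correlated over genes at 0.998 to 0.999. Of 8 T-cell markers, 1 was higher (*Cd28*) and 3 were lower (*Cd5*, *Zbtb7b* and *Gata3*) in dKO cells, and their summed linear level was 32758 to 33379 in dKO arrays and 31267 to 33397 in wild-type arrays. All 6 myeloid, all 4 dendritic cell and all 3 NK cell markers lay below the array median in both genotypes, as did 3 of 4 B-cell and 3 of 4 thymic epithelial markers, and over these lists 2 were higher (*Lyz2* and *Epcam*) and 2 lower (*Itgam* and *Cd79b*). The summed level of 6 DP thymocyte markers was 1955 to 2190 in dKO arrays and 1262 to 1450 in wild-type arrays, with 2 of the 6 higher (*Dntt* and *Cd8b1*) and 1 lower (*Rag1*). That of 13 proliferation markers was 5783 to 6242 in dKO arrays and 5538 to 6017 in wild-type arrays, with 4 higher (*Mcm2*, *Mcm3*, *Mcm5* and *Mcm6*) and 2 lower (*Mki67* and *Top2a*). The part of these markers in the results below was not tested, and in sorted populations a change in the cells present and a change in RNA per cell cannot be told apart.

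In dKO cells, 14 of the 35 Polycomb genes were higher and 4 were lower (limma, adjusted p under 0.05 by Benjamini-Hochberg over the whole array), and 17 did not pass. Of all genes tested, 23.1% passed by the same test, 13.1% being higher and 10.0% lower. Most Polycomb genes are well expressed in these cells, and 33 of the 35 lay in the brighter 50% of genes, of which 23.2% were higher and 16.7% were lower. Among those 33 genes, 39.4% were higher and 12.1% were lower. The changes were small: *Scmh1*, at 1.70-fold, was the only one beyond 1.5-fold, and the median log2 fold change was 0.12 over the 35 genes and 0.01 over all genes. The median SD between arrays was 0.06 within dKO and 0.05 within wild-type cells. For 18 genes all dKO arrays lay above all wild-type arrays, an arrangement found in 21.3% of all genes, and for 4 genes they lay below, as for 16.5% of all genes. A test without limma's moderation estimates each gene's variance on its own. It called 10 genes higher and 0 lower, against 1392 and 1173 of all genes. At an unadjusted p under 0.05 that test gave 17 and 4, where 29.2% of all genes passed in either direction. Without wild-type replicate 2, limma gave 13 and 2, against 1901 and 1496 of all genes.

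**Figure D1:**
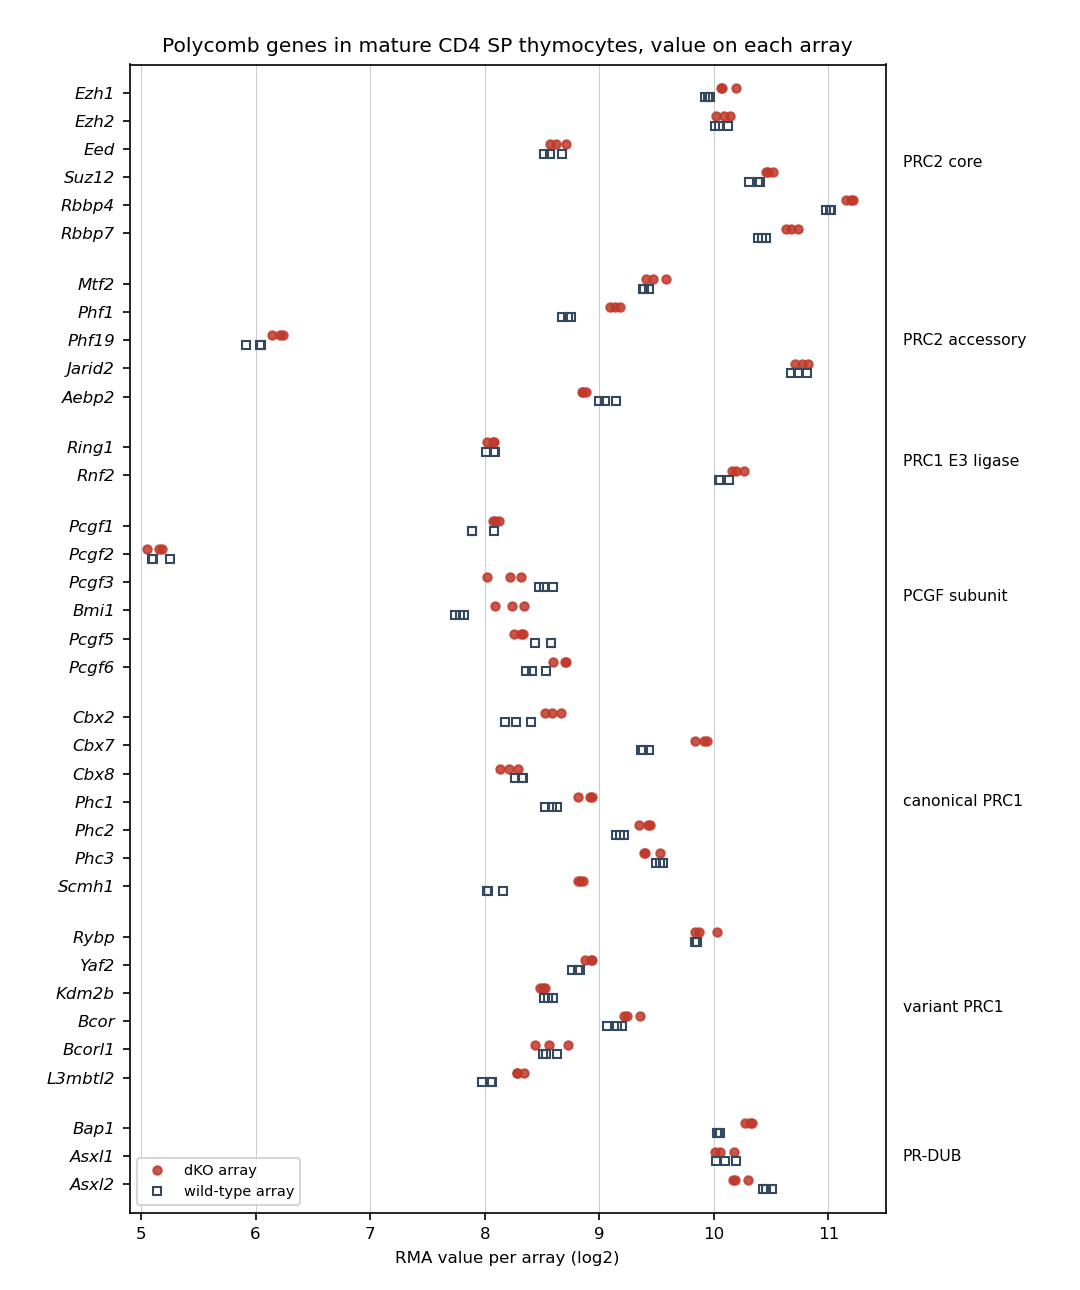
Value of each of 35 Polycomb genes (rows, by subunit class) on each array (horizontal axis, RMA log2 value), with filled circles for 3 dKO arrays and open squares for 3 wild-type arrays. *Scmh1*, *Cbx7*, *Phf1* and *Bmi1* show dKO arrays set clearly to the right of wild-type arrays, while *Phf19* and *Pcgf2* lie below the array medians of 6.27 to 6.32.

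The largest change was that of *Scmh1*, the homologue of the *Drosophila* Polycomb protein Sex comb on midleg, which joins canonical PRC1 through its contact with Phc proteins. Its log2 values were 8.82, 8.83 and 8.86 on dKO arrays, against 8.03, 8.02 and 8.16 on wild-type arrays. The dKO values lay close together and far above the highest wild-type value. It was higher by 0.76 on the log2 scale (standard error 0.05, adjusted p = 6.6e-06), and by its p *Scmh1* ranked 171 among all genes.

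*Cbx7*, whose chromodomain protein reads H3K27Me3 for canonical PRC1, had log2 values of 9.91, 9.94 and 9.83 on dKO arrays, against 9.38, 9.44 and 9.37 on wild-type arrays. It was 1.42-fold higher in dKO cells (log2 fold change 0.50, standard error 0.05, adjusted p = 6.9e-05). *Cbx2* and *Cbx8* encode other chromodomain subunits that can take the place of Cbx7. *Cbx2* had values of 8.53, 8.59 and 8.67 on dKO arrays, against 8.18, 8.28 and 8.40 on wild-type arrays, and rose by 0.31 on the log2 scale (adjusted p = 0.0068, and 0.086 with the unmoderated test). *Cbx8*, which has no protein-coding gene between it and *Cbx2* on chromosome 11, had values of 8.14, 8.29 and 8.21 on dKO arrays, against 8.34, 8.33 and 8.27 on wild-type arrays. The *Cbx8* groups overlapped, and its log2 fold change was -0.10 (95% interval -0.22 to 0.02, adjusted p = 0.25).

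The Phc genes encode the Polyhomeotic proteins, which polymerize through their SAM domain and so cluster canonical PRC1. *Phc1* had log2 values of 8.94, 8.92 and 8.81 on dKO arrays, against 8.53, 8.64 and 8.59 on wild-type arrays (log2 fold change 0.30, adjusted p = 0.0023). *Phc2* had values of 9.43, 9.45 and 9.35 on dKO arrays, against 9.18, 9.14 and 9.22 on wild-type arrays (log2 fold change 0.23, adjusted p = 0.0073). All dKO arrays lay above all wild-type arrays for both genes. *Phc3* had values of 9.40, 9.40 and 9.53 on dKO arrays, against 9.53, 9.55 and 9.50 on wild-type arrays, and the groups overlapped (log2 fold change -0.09, 95% interval -0.20 to 0.03, adjusted p = 0.29). A dimmer row of *Phc3* had means of 8.15 in dKO and 8.10 in wild-type cells, a difference of the opposite sign that did not pass the test either. In all, 5 of the 7 Cbx, Phc and Scm genes of canonical PRC1 were higher in dKO cells and 0 were lower at an adjusted p under 0.05 (limma), with a median log2 fold change of 0.30. At an unadjusted p under 0.05 the count lower was also 0. All 7 lay in the brighter 50% of genes, of which 23.2% were higher and 16.7% lower.

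PCGF subunits decide which kind of PRC1 forms around Ring1 or Rnf2. Of their 6 genes 2 were higher, 2 were lower and 2 did not pass. Among the brighter genes defined above, which hold all of these but *Pcgf2*, 23.2% were higher and 16.7% lower. *Bmi1*, which defines canonical PRC1 together with its paralogue *Pcgf2*, had log2 values of 8.24, 8.09 and 8.34 on dKO arrays, against 7.74, 7.82 and 7.79 on wild-type arrays. It was 1.36-fold higher in dKO cells (log2 fold change 0.44, standard error 0.07, adjusted p = 8.8e-04), with a wider spread among dKO than among wild-type arrays (SD of 0.13 and 0.04). *Pcgf2* was dim, at 5.18, 5.16 and 5.05 on dKO arrays, against 5.25, 5.11 and 5.09 on wild-type arrays (adjusted p = 0.87), not far above the first quartiles of the arrays (4.97 to 5.01).

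*Pcgf3* and *Pcgf5*, which encode the closely related subunits of the variant complexes PRC1.3 and PRC1.5, were both lower. *Pcgf3* had log2 values of 8.02, 8.22 and 8.32 on dKO arrays, against 8.48, 8.51 and 8.59 on wild-type arrays, and fell by 0.34 on the log2 scale (standard error 0.07, adjusted p = 0.0075, and 0.10 with the unmoderated test). This was the largest decrease among the 35 genes, and its dKO arrays were the most spread of all of them (SD of 0.15). *Pcgf5* had values of 8.33, 8.25 and 8.32 on dKO arrays, against 8.58, 8.58 and 8.44 on wild-type arrays. It fell by 0.23 (adjusted p = 0.011, 0.067 with the unmoderated test, and 0.052 without wild-type replicate 2). *Pcgf6*, the subunit of PRC1.6, rose by 0.23 (means of 8.67 in dKO and 8.44 in wild-type cells, adjusted p = 0.016). Its adjusted p was 0.055 without dKO replicate 1, 0.054 without dKO replicate 3, 0.062 without wild-type replicate 2 and 0.055 without wild-type replicate 3. With the unmoderated test it was 0.097. *Pcgf1*, the subunit of PRC1.1, had means of 8.09 in dKO and 7.95 in wild-type cells (adjusted p = 0.13, and 0.030 without wild-type replicate 2).

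The promoter windows of 4 of these genes are shown because they include the 3 largest changes within PRC1 and its largest decrease. Each window holds the 200 bases that end just before the start site in the RefSeq promoter table of GRCm38.p6, written from 5′ to 3′ on the strand of the gene, with every CpG in capitals. CpG-rich promoters are the places where PRC1 and PRC2 usually bind. *Scmh1* has 2 start sites in the table, and the value on the array does not tell which of them was in use.
Scmh1, first start site, chr4:120405148-120405347, plus strand: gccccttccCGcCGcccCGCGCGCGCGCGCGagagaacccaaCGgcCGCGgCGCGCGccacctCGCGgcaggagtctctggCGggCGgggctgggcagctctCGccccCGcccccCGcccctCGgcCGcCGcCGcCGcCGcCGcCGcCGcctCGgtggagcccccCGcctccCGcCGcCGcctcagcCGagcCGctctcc
Scmh1, second start site, chr4:120453044-120453243, plus strand: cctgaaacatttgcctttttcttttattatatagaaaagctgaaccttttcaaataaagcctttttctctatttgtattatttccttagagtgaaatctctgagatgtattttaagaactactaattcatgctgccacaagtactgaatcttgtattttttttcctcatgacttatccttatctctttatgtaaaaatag
Cbx7, chr15:79932647-79932846, minus strand: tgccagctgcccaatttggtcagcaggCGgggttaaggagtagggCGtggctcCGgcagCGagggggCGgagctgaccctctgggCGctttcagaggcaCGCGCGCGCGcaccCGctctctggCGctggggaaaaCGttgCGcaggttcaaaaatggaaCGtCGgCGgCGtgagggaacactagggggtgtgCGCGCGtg
Bmi1, chr2:18676818-18677017, plus strand: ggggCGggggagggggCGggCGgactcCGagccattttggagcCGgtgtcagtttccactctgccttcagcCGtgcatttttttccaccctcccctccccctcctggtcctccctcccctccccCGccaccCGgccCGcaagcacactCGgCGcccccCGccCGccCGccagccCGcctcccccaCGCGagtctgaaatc
Pcgf3, chr5:108461059-108461258, plus strand: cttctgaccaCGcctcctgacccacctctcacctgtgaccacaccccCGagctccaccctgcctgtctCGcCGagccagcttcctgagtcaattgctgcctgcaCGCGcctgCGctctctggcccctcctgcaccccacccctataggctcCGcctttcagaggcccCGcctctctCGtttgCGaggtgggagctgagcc

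The first window of *Scmh1* held 38 CpG dinucleotides and the second 0, and the windows of *Cbx7*, *Bmi1* and *Pcgf3* held 22, 17 and 11. Windows were found for 31 of the 35 genes. For the CpG medians, a gene with several start sites was given its window with the most CpG. The median was 22 CpG for 13 genes that were higher in dKO cells, 19 for 4 that were lower and 17 for 14 that did not pass. Over all 31 Polycomb genes the median was 18 CpG, against 9 for 17491 protein-coding genes. Motifs were searched on both strands in every window of a gene, and a gene counted if any of its windows matched. Genes with several start sites, 8 of the 31, thus had more sequence searched. The GC box GGGCGG, recognized by Sp and Klf factors, was present in 10 of 13 genes that were higher. It was also present in 3 of 4 that were lower and 10 of 14 that did not pass, and in 44.0% of protein-coding genes. Searched in the same way, the ETS core CCGGAAG was in 3 of 31 Polycomb genes (9.68%) and 9.36% of protein-coding genes. The E2F core GCGGGAA was in 2 of 31 (6.45%) and 4.92%, and the Foxo core TGTTTAC in 3 of 31 (9.68%) and 2.36%. The genes with a Foxo core were 0 of 13 that were higher, 1 of 4 that were lower and 2 of 14 that did not pass. A match describes the letters of a window only, and no test was applied. Windows with a GC box were thus found among genes that were higher, lower and not past the test.

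In the PRC2 core, 3 of 6 genes were higher and 0 were lower by limma (also 0 at an unadjusted p under 0.05), with a median log2 fold change of 0.14. All 6 lay among the brighter genes defined above, of which 23.2% were higher and 16.7% lower. *Ezh2*, the main methyltransferase gene of dividing cells, had log2 values of 10.14, 10.02 and 10.09 on dKO arrays, against 10.13, 10.04 and 10.01 on wild-type arrays, and the groups overlapped (log2 fold change 0.02, 95% interval -0.10 to 0.14, adjusted p = 0.82). *Ezh1*, its less active paralogue, had values of 10.07, 10.07 and 10.20 on dKO arrays, against 9.95, 9.92 and 9.96 on wild-type arrays, and was 12.4% higher (adjusted p = 0.0395). The *Ezh1* call was lost after cyclic loess normalization (adjusted p = 0.071) and with the unmoderated test (adjusted p = 0.096). It was also lost without each array in turn except dKO replicate 1, reaching an adjusted p of 0.13 when wild-type replicate 2 was left out.

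*Eed*, which binds H3K27Me3 and stimulates the enzyme, had means of 8.63 in dKO and 8.59 in wild-type cells (adjusted p = 0.67). *Suz12*, the scaffold of PRC2, had values of 10.47, 10.46 and 10.52 on dKO arrays, against 10.39, 10.31 and 10.40 on wild-type arrays. These groups did not overlap, yet the difference of 0.12 did not pass (adjusted p = 0.12, and 0.036 after a second quantile normalization). *Rbbp4* and *Rbbp7* encode histone chaperones that PRC2 shares with other chromatin complexes. *Rbbp4* had values of 11.21, 11.20 and 11.16 on dKO arrays, against 11.02, 11.02 and 10.98 on wild-type arrays, and rose by 0.18 (adjusted p = 0.015, and 0.051 without dKO replicate 2). *Rbbp7* had values of 10.73, 10.63 and 10.68 on dKO arrays, against 10.39, 10.46 and 10.42 on wild-type arrays, and rose by 0.26 (adjusted p = 0.0034). Neither gene's groups overlapped. A second row of *Rbbp7* was higher by 0.19. A second row of *Eed*, with means of 5.16 in dKO and 4.96 in wild-type cells, was higher by 0.20 in a test of all rows (adjusted p = 0.014), although it is dim.

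Accessory subunits divide PRC2 into PRC2.1, which holds Phf1, Mtf2 or Phf19, and PRC2.2, which holds Jarid2 and the zinc finger protein Aebp2. *Phf1*, whose Tudor domain protein belongs to the Polycomb-like family, had log2 values of 9.09, 9.18 and 9.14 on dKO arrays, against 8.73, 8.75 and 8.67 on wild-type arrays, and was 1.34-fold higher (log2 fold change 0.42, standard error 0.05, adjusted p = 2.0e-04). *Phf19*, at values of 6.24, 6.14 and 6.21 on dKO arrays, against 5.92, 6.04 and 6.05 on wild-type arrays, rose by 0.20 (adjusted p = 0.024), just below the array medians. Its adjusted p was 0.078 without dKO replicate 1, 0.066 without dKO replicate 3, 0.080 without wild-type replicate 1 and 0.091 with the unmoderated test. *Mtf2*, another Polycomb-like subunit, had means of 9.49 in dKO and 9.40 in wild-type cells (adjusted p = 0.33). In PRC2.2, *Jarid2*, a JmjC family protein without demethylase activity, had means of 10.77 in dKO and 10.74 in wild-type cells (95% interval of the log2 fold change -0.09 to 0.15). *Aebp2* had values of 8.85, 8.86 and 8.89 on dKO arrays, against 9.05, 9.14 and 9.00 on wild-type arrays, and fell by 0.20 (adjusted p = 0.017). That p was 0.051 without dKO replicate 1, 0.057 without dKO replicate 2, 0.083 without wild-type replicate 2 and 0.065 with the unmoderated test.

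Neither E3 ligase subunit passed limma's test (the unadjusted p of *Rnf2* was 0.028). Both lay among the brighter genes defined above, of which 23.2% were higher and 16.7% lower. *Ring1* had means of 8.06 in both genotypes (95% interval of the log2 fold change -0.11 to 0.10). *Rnf2* had values of 10.19, 10.16 and 10.26 on dKO arrays, against 10.05, 10.05 and 10.13 on wild-type arrays, groups that did not overlap (log2 fold change 0.13, adjusted p = 0.098, and 0.034 after a second quantile normalization).

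Variant PRC1 had 1 gene that was higher among 6 and 0 that were lower. All 6 lay among the brighter genes defined above, of which 23.2% were higher and 16.7% lower. *L3mbtl2*, an MBT domain protein of PRC1.6, had log2 values of 8.34, 8.28 and 8.28 on dKO arrays, against 8.07, 8.06 and 7.98 on wild-type arrays (log2 fold change 0.27, adjusted p = 0.0026). *Rybp* and *Yaf2*, which take the place of a Cbx protein in variant complexes, had log2 fold changes of 0.06 (adjusted p = 0.51) and 0.11 (adjusted p = 0.12). *Kdm2b*, which brings PRC1.1 to unmethylated CpG through its CXXC domain, had means of 8.51 in dKO and 8.56 in wild-type cells (adjusted p = 0.51). The corepressor genes of the same complex, *Bcor* and *Bcorl1*, had log2 fold changes of 0.13 (adjusted p = 0.13) and 0.02 (adjusted p = 0.89), that of *Bcorl1* turning negative after a second quantile normalization and after cyclic loess normalization.

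Of the 3 genes of the deubiquitinase, 1 was higher, 1 was lower and 1 did not pass. All 3 lay among the brighter genes defined above, of which 23.2% were higher and 16.7% lower. *Bap1*, the catalytic subunit, had log2 values of 10.34, 10.28 and 10.32 on dKO arrays, against 10.06, 10.03 and 10.04 on wild-type arrays, and was 1.21-fold higher (log2 fold change 0.27, standard error 0.04, adjusted p = 0.0017). *Asxl2*, which encodes an activating cofactor of Bap1, had values of 10.18, 10.16 and 10.30 on dKO arrays, against 10.43, 10.45 and 10.51 on wild-type arrays, and fell by 0.25 (standard error 0.05, adjusted p = 0.0069, and 0.052 with the unmoderated test). Neither pair of groups overlapped. *Asxl1*, the related cofactor, had values of 10.05, 10.01 and 10.18 on dKO arrays, against 10.19, 10.10 and 10.02 on wild-type arrays (95% interval of the log2 fold change -0.16 to 0.11, adjusted p = 0.85).

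**Figure D2:**
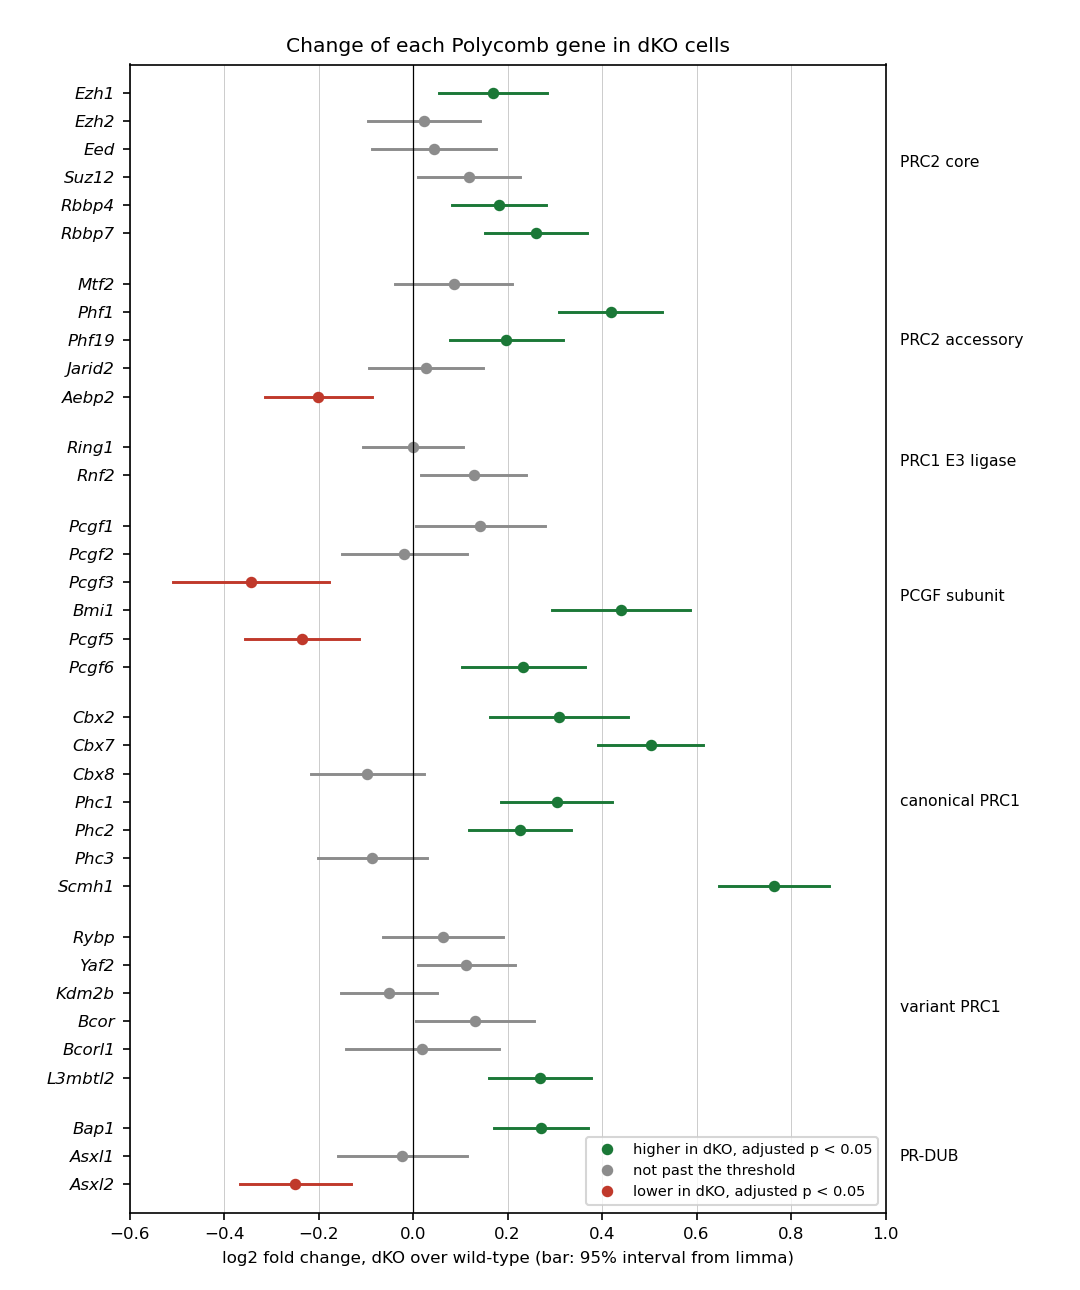
Log2 fold change of each Polycomb gene (dKO over wild-type, horizontal axis), with its 95% interval from limma as a bar, grouped by subunit class. Green marks 14 genes that were higher, red 4 that were lower and grey 17 that did not pass. The points run from -0.34 for *Pcgf3* to 0.76 for *Scmh1*, and most grey intervals include 0.

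Since several subunits replace each other within a complex, the difference between the log2 values of related genes was taken on each array and compared between genotypes for 14 pairs. A change in this difference says that the related genes changed unequally, not which of them is more abundant. With 3 arrays against 3, the exact two-sided permutation test cannot give a p below 0.10. The groups did not overlap in 6 pairs, which reached that limit (0.23 after Benjamini-Hochberg adjustment over the 14 pairs). *Cbx7* minus *Cbx8* was 1.78, 1.65 and 1.62 on dKO arrays, against values between 1.04 and 1.11 on wild-type arrays, a shift of 0.60. *Phf1* minus *Mtf2* shifted by 0.33 and *Phf1* minus *Phf19* by 0.22. *Asxl1* minus *Asxl2* was -0.13, -0.15 and -0.12 on dKO arrays, against -0.24, -0.36 and -0.49 on wild-type arrays, a shift of 0.23. *Phc3* minus *Phc2* shifted by -0.31, and *Pcgf2* minus *Bmi1*, in which *Pcgf2* is dim, by -0.46.

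In the remaining 8 pairs dKO and wild-type arrays overlapped. *Ezh1* minus *Ezh2* was -0.08, 0.06 and 0.11 on dKO arrays, against -0.18, -0.12 and -0.05 on wild-type arrays (shift of 0.15, exact p = 0.20). *Ring1* minus *Rnf2* shifted by -0.13 (exact p = 0.20), and *Pcgf3* minus *Pcgf5*, both of which fell, by -0.11 (exact p = 0.60). *Rbbp4* minus *Rbbp7*, *Phc1* minus *Phc2*, *Pcgf1* minus *Pcgf6*, *Rybp* minus *Yaf2* and *Bcor* minus *Bcorl1* shifted by between -0.09 and 0.11.

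**Figure D3:**
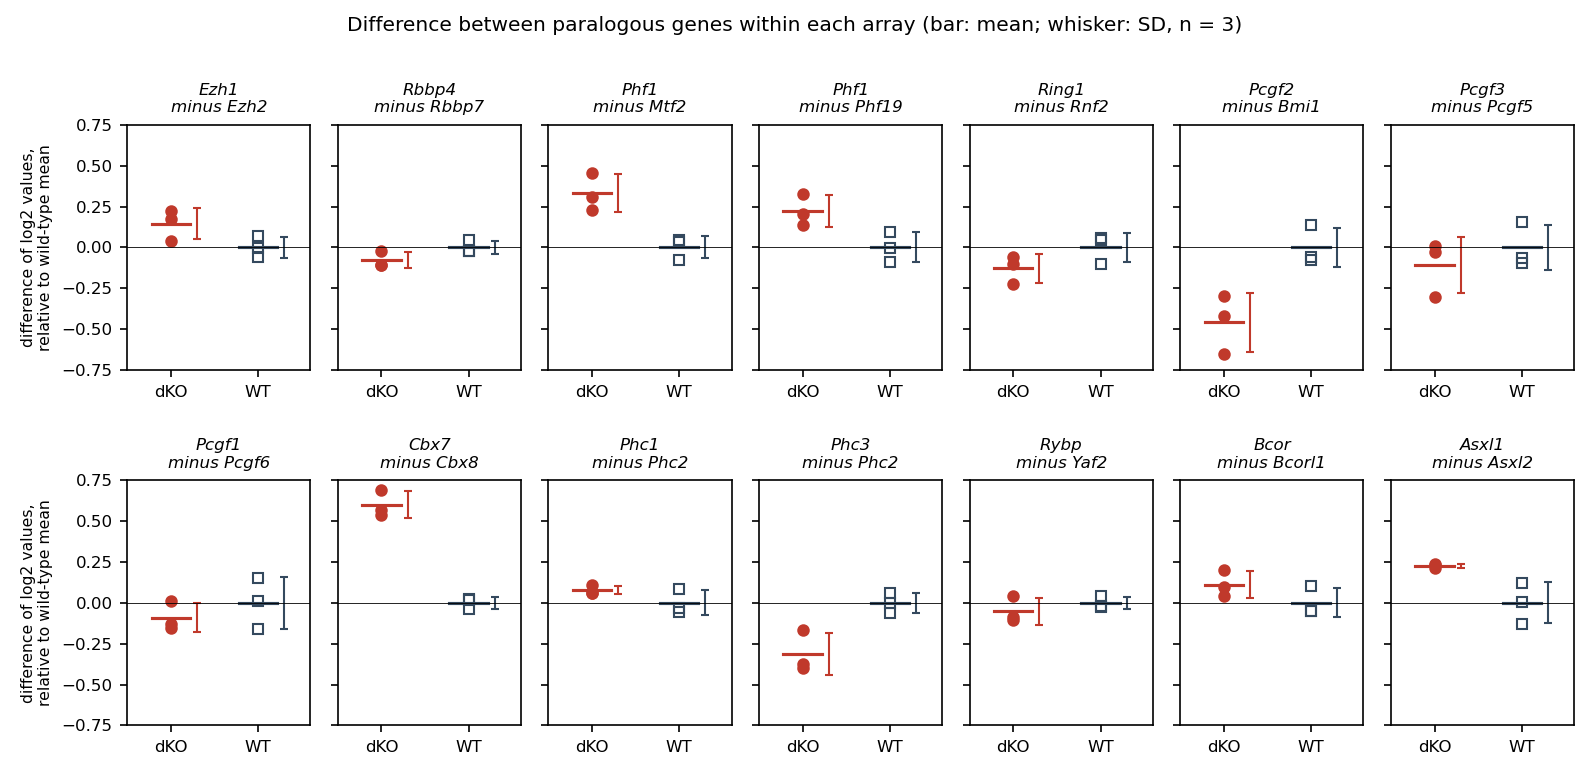
Difference of log2 values between related Polycomb genes on each array (vertical axis, relative to the wild-type mean of the same pair) for dKO (filled circles, left) and wild-type (open squares, right), with the mean as a bar and the SD (n = 3) as a whisker. *Cbx7* minus *Cbx8* shows the largest shift, at 0.60, and *Ezh1* minus *Ezh2* overlaps between genotypes.

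A further 38 measured genes encode partners of these complexes or related proteins, among them 5 H2A deubiquitinases outside PR-DUB, and are called partners here. Of these, 9 were higher and 9 were lower in dKO cells, with a median log2 fold change of 0.03. Of the 38 genes 33 lay in the brighter 50%, 8 of them higher and 9 lower, where 23.2% and 16.7% of all such genes were. The share that was higher was thus near that of genes of this brightness, and the share that was lower was above it. Neither share was tested. Among the genes that were higher, *Usp22*, a ubiquitin protease of the SAGA coactivator, rose by 0.53 (adjusted p = 3.3e-05), the related PRC1.3 and PRC1.5 subunit genes *Fbrs* by 0.35 (4.4e-04) and *Auts2* by 0.27 (0.0018, at means of 6.06 in dKO and 5.79 in wild-type cells, below the array medians). *Hdac2* and *Hdac1*, histone deacetylases of several corepressor complexes, rose by 0.31 and 0.25 (adjusted p = 0.0026 and 0.0042), and *E2f6*, a repressor of the E2F family, by 0.32 (0.0065). Among those that were lower, *Foxk1*, a forkhead factor that binds Bap1, fell by 0.46 (adjusted p = 2.8e-04) and *Ogt*, the O-GlcNAc transferase, by 0.41 (1.8e-04). *Usp3* and *Mysm1*, both of which encode H2A deubiquitinases outside PR-DUB, fell by 0.33 (7.5e-04) and 0.24 (0.0054), *Mbd6*, a methyl-CpG-binding domain gene, by 0.27 (0.0081) and the casein kinase gene *Csnk2a1* by 0.21 (0.0074).

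When the 35 genes and those partners with a known place were assigned to complexes, members of a complex did not always move together. In PRC2.1, 3 of 6 genes were higher (*Phf1*, *Phf19* and *Epop*) and 1 was lower (*Lcor*), and in PRC2.2, 1 of 2 was lower (*Aebp2*). Canonical PRC1 had 6 of 9 genes higher and 0 lower, and PRC1.6 had 6 of 10 higher and 0 lower, *Hdac1* and *Hdac2* among them. Of 6 genes of PRC1.1, 0 passed limma's test (2 had an unadjusted p under 0.05, *Pcgf1* and *Bcor*), with log2 fold changes of -0.05 to 0.14. In PRC1.3 and PRC1.5, *Pcgf3*, *Pcgf5* and *Csnk2a1* were lower while *Fbrs* and *Auts2* were higher. In PR-DUB and its partners 4 of 8 genes were lower (*Foxk1*, *Ogt*, *Mbd6* and *Asxl2*) and *Bap1* was higher, with a median log2 fold change of -0.14. Of 5 other H2A deubiquitinases, 1 was higher and 2 were lower. This assignment was made after the values had been seen, no test was applied to it, and the counts stand beside 23.2% higher and 16.7% lower in the brighter 50% of genes, which held all genes of PRC1.6, PRC1.1 and PR-DUB and 8 of the 9 of canonical PRC1.

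**Figure D4:**
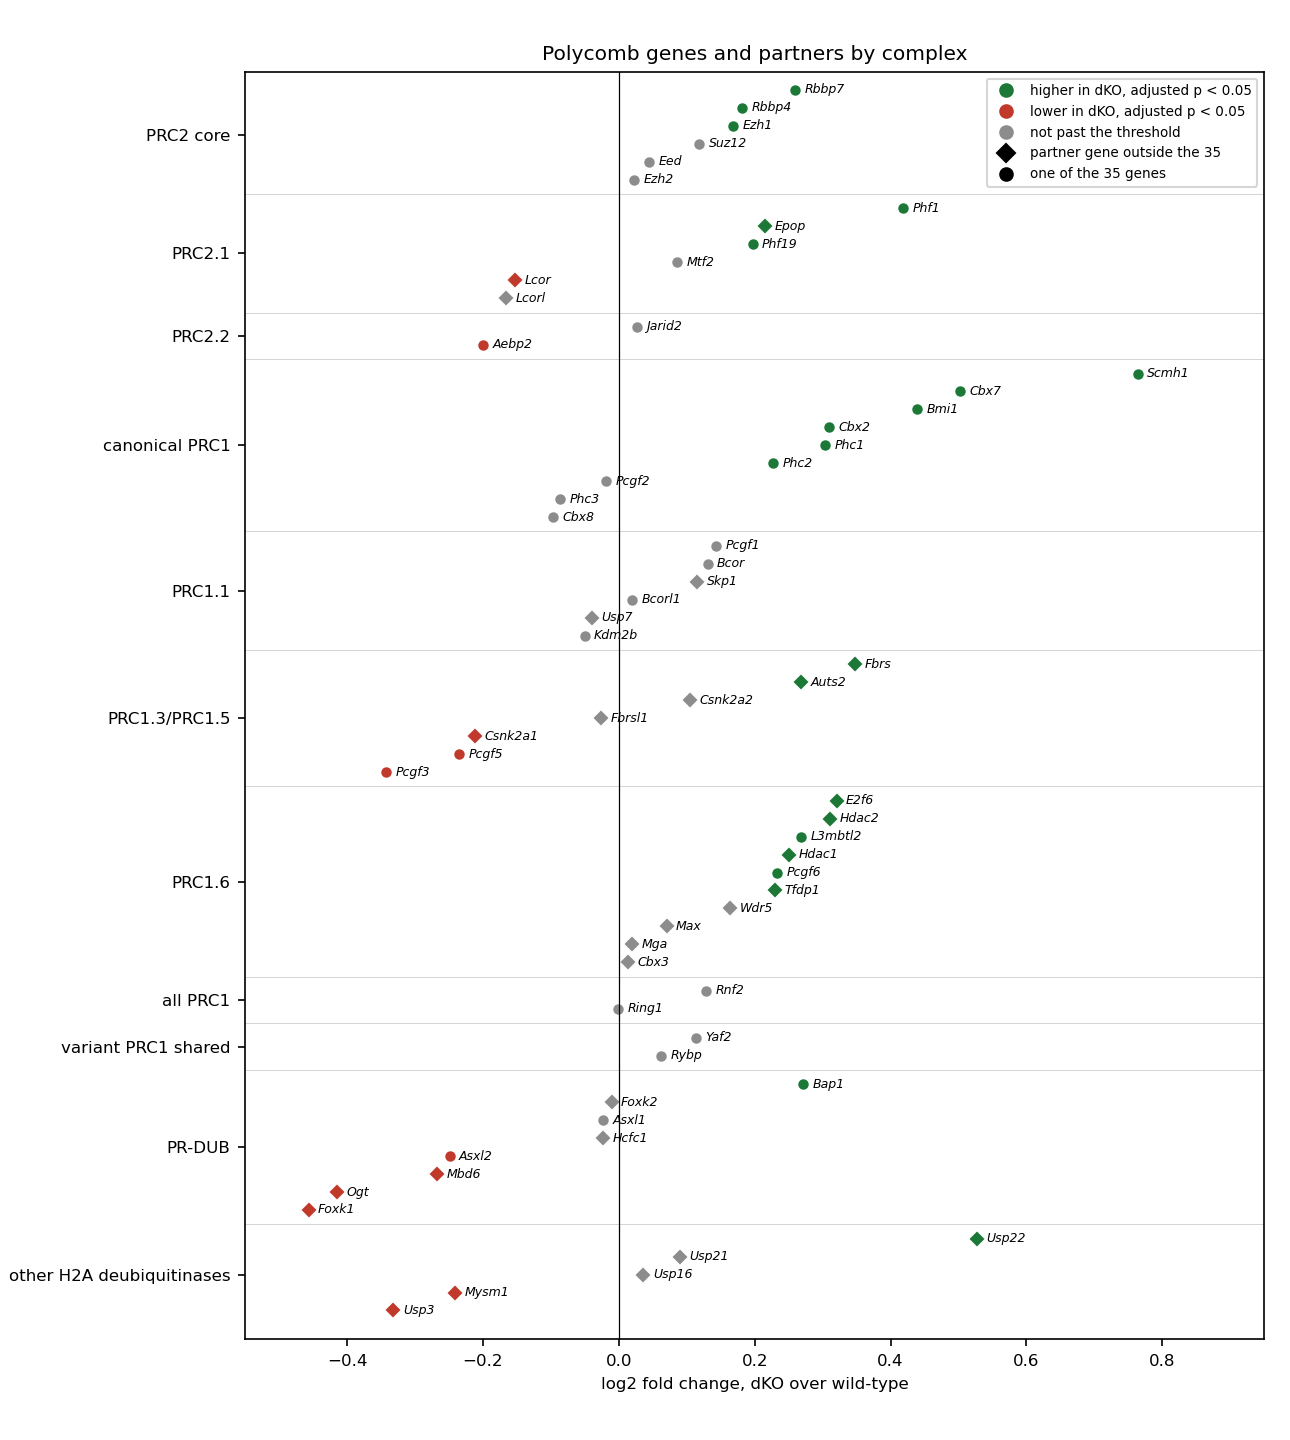
Log2 fold change (dKO over wild-type, horizontal axis) of Polycomb genes (circles) and further partners (diamonds) by complex (rows), coloured green (higher), red (lower) or grey (neither) by limma's adjusted p at 0.05. Canonical PRC1 reaches from -0.10 to 0.76, PRC1.6 from 0.01 to 0.32 and PR-DUB from -0.46 to 0.27.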

How the data were processed

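The methods describe hybridization of sorted thymocyte RNA to the Affymetrix Mouse Gene 1.0 ST array, while the design text names an exon array. The deposited values are log2 expression values, 1 column per array, that the authors made in Partek with RMA per the labels (background correction, quantile normalization between arrays and a summary per transcript row). Software versions were not given in the sources read. RMA hides a change common to most genes and compresses dim genes. No detection call comes with the values, and the number of arrays limits precision.

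Of 25254 rows, 21496 carried 1 symbol (21415 with an entry in the RefSeq table of GRCm38.p6, used to update names), 1565 several and 2193 none. The brightest row of each gene was kept. The log2 values were tested in limma 3.58.1 (R 4.3.3) with genotype as the only term, no filter, Benjamini-Hochberg adjustment over 19752 genes and a threshold of 0.05. The script was tested on simulated data. Figures were drawn with matplotlib 3.10.9. The genes, pairs, partners and marker lists were chosen with earlier results of these data known. All 36 genes could be named, and of partners up to 6 in each direction with the smallest p. Genes given by complex were named with their values known. Motifs were likewise chosen with the calls known, and matches of different motifs may overlap.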

Additional observations from a re-analysis of the deposited data

How the results depend on the processing

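Alternatives were a second quantile normalization, cyclic loess, keeping the brighter genes, the mean of a gene's rows, testing all rows, a robust prior that follows intensity, an unmoderated test, a test for a fold over 1.1, a replicate block and leaving out each array. Without 1 array, 11 to 13 Polycomb genes were higher, 2 to 4 lower (2 without wild-type replicate 2) and 12 to 18 partners called. Over all genes, 1901 to 2259 were then higher and 1496 to 1855 lower. The test for a fold over 1.1 called 4 genes higher (*Scmh1*, *Cbx7*, *Phf1* and *Bmi1*), 0 lower and 5 partners, against 14, 4 and 18. The unmoderated test called 10 higher and 0 lower. At an unadjusted p under 0.05 it gave 17 and 4, where 29.2% of all genes passed in either direction. After adjustment it called 1392 higher and 1173 lower over all genes, and the fold test 949 and 880, against 2587 and 1976. In every setting but the fold test, 9 genes stayed higher and 0 stayed lower. The matching share over all genes was not computed. After a second quantile normalization and after cyclic loess 16 and 13 were higher and 4 lower each time. Over all genes, 2444 were higher and 2112 lower after the former, and 2222 and 2328 after the latter.

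Same-numbered dKO and wild-type arrays correlated at 0.10, 0.02 and 0.07 in their deviations from the group means. Arrays of different numbers correlated at -0.10 to 0.04. Replicates 1 and 3 of dKO correlated best with the same number, and dKO replicate 2 with another (wild-type replicate 3). These values do not settle whether replicate numbers pair the samples. With the replicate block 14 genes were higher, 4 lower and 16 partners called, and over all genes 2574 were higher and 1970 lower.

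Signs turned only in genes that did not pass the test. Log2 fold changes turned to -0.00521 for *Ezh2* and -0.00458 for *Eed* after cyclic loess, and to -0.0138 and -0.0293 for *Bcorl1* after a second quantile normalization and cyclic loess. Without 1 array they ran from -0.00638 to 0.0563 for *Ezh2*, -0.00667 to 0.0634 for *Jarid2*, -0.025 to 0.0195 for *Ring1*, -0.0474 to 0.0318 for *Pcgf2*, -0.0568 to 0.0894 for *Bcorl1* and -0.0703 to 0.0218 for *Asxl1*. The shifts of the 14 pairs kept their sign in each of the 9 settings in which they were recomputed, but small ones depended on single arrays. For example, that of *Pcgf3* minus *Pcgf5* was -0.00983 without dKO replicate 1, against -0.11, and that of *Pcgf1* minus *Pcgf6* ran from -0.171 to -0.014 without 1 array, against -0.09. *Phf19* and *Pcgf2* lie below the array medians, which limits their measured changes.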
